A study of Mus musculus with 15 samples.

Results

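Gene expression in the ventricles of 3 mice with 72 hours of Celf1 induction was compared with that of 3 control mice, across 10868 of the 16042 genes of the deposited table. The induced mice (MHCrtTA/TRECUGBP1) carried 2 transgenes. In the first the alpha myosin heavy chain promoter, which is active in heart muscle cells, drives the reverse tetracycline activator rtTA. The second encodes an N-terminally Flag-tagged human Celf1 protein (LYLQ isoform) behind a promoter that this activator switches on when doxycycline is given. The control mice (MHCrtTA) carried the activator transgene alone. All 6 mice were 20 to 22 weeks old, and all had food with 2 g of doxycycline per kg for 72 hours, after food had been removed for 2 to 3 hours. Of the 15 mice and 5 groups in the series, these are the only induced and control mice matched for time on doxycycline. The ventricles were taken without atria and without a small part of the apex, and polyadenylated RNA was sequenced in pairs of reads. Samples were chosen by their labels, as every column named for 72 hours or for control.

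CELF1 (CUGBP1) is an RNA-binding protein that recognises GU-rich sequence. It controls alternative splicing and also the decay and translation of mRNAs. Its level falls in the mouse heart after birth, and it is raised in heart tissue in myotonic dystrophy type 1, which is why mice with an inducible copy are used. A table of values per gene holds no measure of splicing, so only levels of mRNA are described. In whole ventricle, fewer cells of a type and less RNA per cell cannot be told apart.

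The unit is RPKM, which scales the reads of a gene to its length and to the mapped reads of the library. Differences are on the log2(RPKM + 1) scale, induced minus control, with the standard error of a limma fit that holds all 15 mice, and a gene is called when its adjusted p is at most 0.05. Values of single mice always stand in the order A3250, A3259 and A3280 for the controls and A3278, A3281 and A3264 for the induced mice. The mice A3281 and A3264 have 2 columns each, which were averaged. Depth estimated from the step between low values was 16.7 to 45.9 M reads in the 8 columns of these mice, and 1 column of A3281 was poorly determined (22.9 or 45.9 M reads). Column names carry a code whose meaning the labels do not give. The 3 controls and A3278 share 1 code, and no control has the codes of A3281 and A3264. The median difference of all tested genes was 0.09 in A3278, -0.19 in A3281 and -0.19 in A3264. Across genes the values of A3281 and A3264 were closer to each other (Pearson r 0.986) than either was to A3278 (0.95 and 0.967). With the controls A3278 had r of 0.960, 0.964 and 0.964, above its value with A3281 and below that with A3264. A3278 is therefore also given on its own, and the part of the code in those results cannot be told apart from that of the mice. Heart muscle genes checked the tissue: Myh6, the alpha myosin heavy chain, stood at 9165, 9353 and 8932 RPKM in the controls and 7036, 5931 and 5761 RPKM after induction, and the ventricular light chain Myl2 at 10677, 9448 and 8436 RPKM and 9831, 6391 and 6994 RPKM. The atrial light chain Myl7 was at most 19 RPKM in any of these mice.

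Celf1 (mouse gene, chr2:90780539-90859654, plus strand in mm9) was at 33.8, 36.1 and 33.3 RPKM in the controls and 179, 181 and 159 RPKM in the induced mice. All induced values lay far above all control values, and the 3 induced mice were alike. The difference was 2.29 ± 0.20, adjusted p = 1.8e-06, and an exact two-sided permutation test of the 3 against 3 mice gave p = 0.1, the smallest that this design allows. The transgene is human, and how many of its reads align to the mouse gene is not given in the sources used here, so the value need not be the full amount of Celf1 mRNA. Induced mice of the other times covered a range of 29.5 to 423 RPKM.

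After 72 hours, 695 genes were higher and 567 lower than in the controls, or 6.39% and 5.22% of those tested (11.6% in all). These shares of all genes are the measure for the list counts below, also where they are not repeated. Rises were larger than falls. A difference of more than 1 on the log2 scale was reached by 308 of the higher genes and by 50 of the lower ones. Counted without a test, the 3 induced values lay all above the 3 controls for 1687 genes (15.5%) and all below them for 2122 (19.5%). The mice did not contribute alike. Among the higher genes the median difference was 0.85 in A3278, 1.1 in A3281 and 0.91 in A3264. Among the lower genes it was -0.52, -0.91 and -0.82 in the same order.

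Leaving out A3278 gave 989 higher (9.1%) and 1501 lower genes (13.8%), while leaving out A3281 gave 358 and 120, and leaving out A3264 424 and 150. Leaving out 1 control gave 355 to 464 higher and 141 to 250 lower genes, the fewest without A3280. A3278 against the controls, the comparison within 1 code, gave 189 higher (1.74%) and 15 lower genes (0.138%). That fit has 1 induced mouse, which is assumed to vary like the mice of the other groups. Of the 695 higher genes, 175 were among these 189, and of the 567 lower genes 13 were among these 15. The plot of A3278 against the other induced mice shows the same on the scale of single genes: many of the largest rises lie near the diagonal, and many of the falls lie closer to 0 in A3278.

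**Figure D1:**
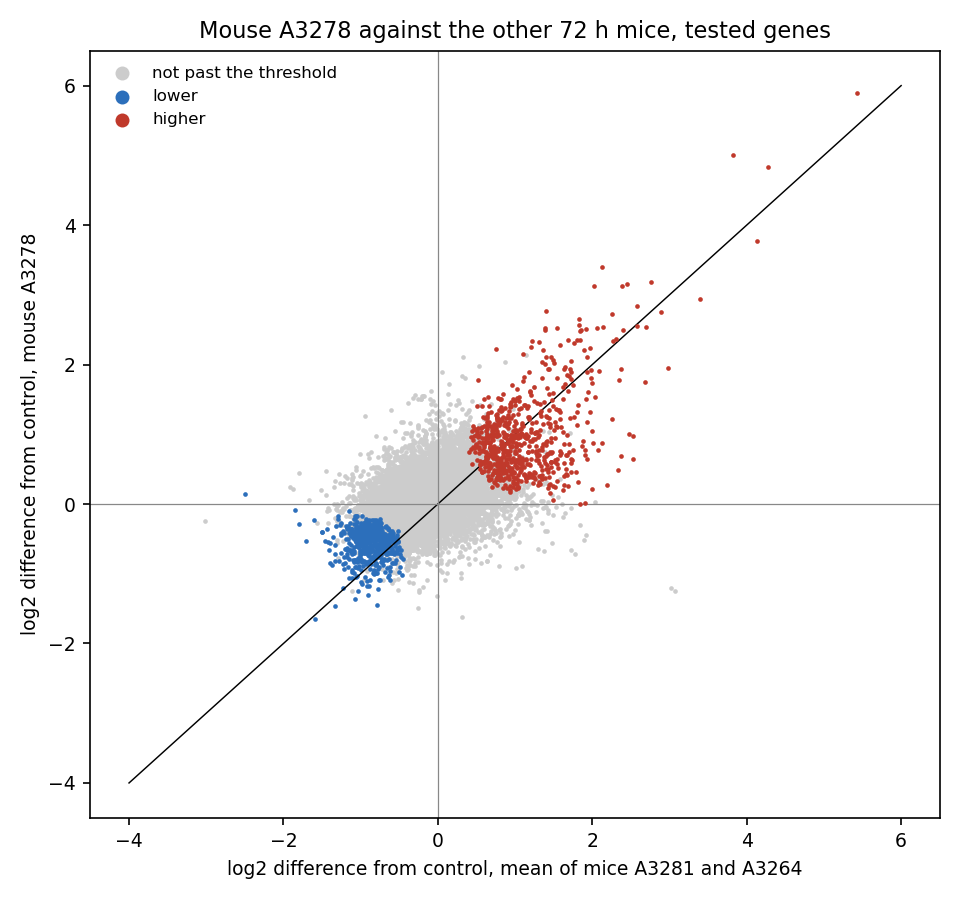
Log2 difference of each tested gene from the control mean in mouse A3278 (vertical axis) against the mean of mice A3281 and A3264 (horizontal axis), with higher calls in red and lower calls in blue. The line marks equal differences, the median of the higher calls is 0.85 in A3278, and that of the lower calls is -0.52.

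Targets of p53 were among the largest rises. The transcription factor p53 (Trp53) is stabilised by DNA damage and other stress and raises genes that stop the cell cycle, repair DNA, slow growth and, in some cells, start apoptosis. It also raises its own inhibitors, among them Mdm2. Of 53 listed p53 genes that were tested, in 4 groups by role, 26 were higher and 2 lower, against 6.39% and 5.22% of all genes. In A3278 against the controls 21 were higher and 0 lower, against 1.74% and 0.138%.

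In the group for cell cycle arrest 5 of 10 genes were higher and 1 lower, with a median difference of 0.72. Cdkn1a, the inhibitor p21 of cyclin-dependent kinases, went from 9.81, 9.25 and 11.3 RPKM to 98.1, 59.9 and 59.0 RPKM (2.68 ± 0.30, adjusted p = 3.6e-05). Gtse1, a microtubule protein that binds p53, was nearly silent in the controls at 0.390, 0.160 and 0.510 RPKM and reached 37.2, 25.9 and 24.2 RPKM (4.46 ± 0.34, adjusted p = 4.5e-07). Every induced value of both genes was several times the highest control, and A3278 had the most of each. Btg2, an antiproliferative cofactor of deadenylation, rose from 15.2, 21.2 and 19.1 RPKM to 108, 59.8 and 78.6 RPKM. The kinase Plk2 rose by 1.74 ± 0.24 (adjusted p = 1.7e-04). Zmat3 also passed, and the LIM domain protein Fhl2, a muscle gene that the list holds as a p53 target, fell by 0.95 on the log2 scale with -0.39 in A3278.

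The genes that act on p53 itself gave 6 higher and 1 lower of 9, with a median of 0.90. Trp53inp1, a stress-induced cofactor of p53 (chr4:11083578-11101526, plus strand), had 1.90, 1.96 and 1.39 RPKM in the controls and 36.2, 52.2 and 42.2 RPKM after induction. Its difference of 4.01 ± 0.21 (adjusted p = 4.2e-09) was the fourth largest of all genes. Mdm2, the ubiquitin ligase that degrades p53, rose from 25.1, 27.9 and 25.5 RPKM to 139, 149 and 119.8 RPKM (2.33 ± 0.19, adjusted p = 1.1e-06). The related inhibitor Mdm4 rose by 1.38 ± 0.24 with 0.86 in A3278, and the phosphatase Ppm1d, which dampens damage signalling, by 1.32 ± 0.24. The p53 gene Trp53 itself was higher too, from 9.68, 10.6 and 14.5 RPKM to 34.3, 17.6 and 18.1 RPKM (0.90 ± 0.28, adjusted p = 0.048). In contrast, Trp53inp2, an autophagy cofactor, was lower (-1.08 ± 0.34, adjusted p = 0.049) and stood at -0.59 in A3278.

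Of 15 p53 targets in apoptosis, 8 were higher and 0 lower (median 0.91). The death receptor genes were among them. Eda2r, the receptor of ectodysplasin A2, rose from 0.210, 0.930 and 0.690 RPKM to 11.1, 16.2 and 15.1 RPKM (3.24 ± 0.24, adjusted p = 3.1e-07). Tnfrsf10b, the TRAIL receptor, rose by 2.00 ± 0.27, and Fas by 1.68 ± 0.30. Aen, a nuclease of the nucleolus, had 16.3, 15.8 and 19.5 RPKM in the controls and 103, 70.5 and 64.4 RPKM in induced mice, and Pidd1, the death domain adaptor of the PIDDosome, rose by 1.91 ± 0.20. Apaf1, Bbc3 and Ei24 also passed. Bbc3 (0.94 ± 0.27, adjusted p = 0.034 in limma) did not pass with no filter, the 2 groups alone or the first column of each mouse. It also did not pass with any 1 control left out or without A3278 (0.52 ± 0.21, adjusted p = 0.079 in limma), and stood at 1.78 in A3278. Bax, one of the best known targets, did not pass at 21.9, 19.2 and 31.3 RPKM and 51.7, 39.7 and 35.2 RPKM (0.79 ± 0.30, adjusted p = 0.092). It passed after median-ratio scaling, quantile normalization and a GC correction and with the 2 groups alone (adjusted p = 0.029, 0.032, 0.0019 and 0.048 in limma).

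Among 19 p53 targets in DNA repair, metabolism and growth control, 7 were higher and 0 lower, and the median of -0.01 compares with -0.10 for all genes. Dcxr, a reductase of dicarbonyls and L-xylulose, rose from 8.93, 11.2 and 8.80 RPKM to 95.6, 67.2 and 74.9 RPKM (2.91 ± 0.21, adjusted p = 3.1e-07). Its neighbour Rac3, a small GTPase on the opposite strand whose 3′ end lies 1429 bases away, rose as well, from 1.53, 1.92 and 1.22 RPKM to 21.2, 9.88 and 15.1 RPKM. Ddit4l, an inhibitor of mTOR signalling, rose by 2.64 ± 0.34, Phlda3, an inhibitor of Akt, by 2.39 ± 0.37, and Sesn2, a sestrin, by 1.95 ± 0.22. The repair genes Ercc5 and Polk rose by 1.91 ± 0.19 and 1.87 ± 0.18. Ddb2 and Xpc, which find damaged bases for excision repair, did not pass (-0.09 ± 0.19, adjusted p = 0.78 and -0.35 ± 0.24, adjusted p = 0.37). Trp53, Zmat3, Fas, Apaf1, Bbc3, Ei24, Bax, Ddb2 and Xpc lie outside the rule for named genes and were chosen after their values were seen.

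Promoters of these genes were searched for the p53 decamer, a run of bases of which the p53 response element holds a pair. RefSeq windows (GRCm38.p6) from 250 bases before to 50 bases after the start were found for 44 of the listed p53 genes and for 8707 of the tested genes. The decamer was in 38.6% of the former and 8.29% of the latter, and in 10 of the 23 with a window that were higher. Counting every window of a gene was chosen after a count with 1 window for each gene, the outermost start, had been seen. That count gave 13 of 44, 7 of the 23 and 6.79%. A full element of 2 decamers was in 1 listed gene, Cdkn1a, and in 0.0574% of all. The windows below are shown because their genes rose together and hold the decamer before the start. Capitals mark the decamers, and every line reads 5′ to 3′ on the strand of the gene.
Cdkn1a (chr17:29090881-29090962, plus strand): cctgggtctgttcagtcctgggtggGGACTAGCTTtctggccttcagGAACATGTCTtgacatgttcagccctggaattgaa
Mdm2 (chr10:117710910-117710969, minus strand): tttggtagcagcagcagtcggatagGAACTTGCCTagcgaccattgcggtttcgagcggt
Ppm1d (chr11:85311097-85311156, plus strand): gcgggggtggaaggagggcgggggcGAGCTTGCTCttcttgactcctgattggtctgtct
Trp53 (chr11:69580259-69580318, plus strand): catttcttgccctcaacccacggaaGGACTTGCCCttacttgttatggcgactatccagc
Ddit4l (chr3:137623557-137623616, plus strand): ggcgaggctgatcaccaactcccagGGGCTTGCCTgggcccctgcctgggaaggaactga
In Mdm2 the decamer starts 186 bases before the start, in Ppm1d 132, in Ddit4l 90 and in Trp53 75. A match of letters is a description and not a site of binding, and these motifs were chosen with the results known.

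Outside the p53 lists the largest rises were in genes of diverse roles. The largest of all was 1700007K13Rik, an uncharacterised gene (chr2:28317521-28321852, minus strand), which was listed at 0 in the 3 controls and at 58.5, 37.2 and 47.3 RPKM in the induced mice (adjusted p = 1.5e-09). Fam166a, at 0, 0 and 0.130 RPKM and 32.4, 14.3 and 13.1 RPKM, came next in this set, but its exons overlap those of Tubb2c on the other strand. The repair and survival gene Ddias rose by 2.64 ± 0.32, Arhgap11a, a GTPase-activating protein, by 2.57 ± 0.22, and the transcription factor Mybl1 by 2.37 ± 0.25. Snrnp48, a protein of the minor spliceosome, went from 5.92, 6.67 and 6.89 RPKM to 41.1, 43.8 and 33.9 RPKM. Dffb, the nuclease that cuts DNA in apoptosis, went from 3.00, 3.74 and 2.73 RPKM to 26.3, 20.2 and 17.5 RPKM (2.42 ± 0.22, adjusted p = 4.3e-06). Tnfrsf4, a costimulatory receptor, rose by 2.22 ± 0.22, and Riok2, a kinase needed to mature the small ribosomal subunit, by 2.16 ± 0.20 with 1.78 in A3278. In each of these genes the 3 induced values lay above the 3 controls, which the rule for the largest rises requires. The plot of rising genes gives the values of single mice.

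**Figure D2:**
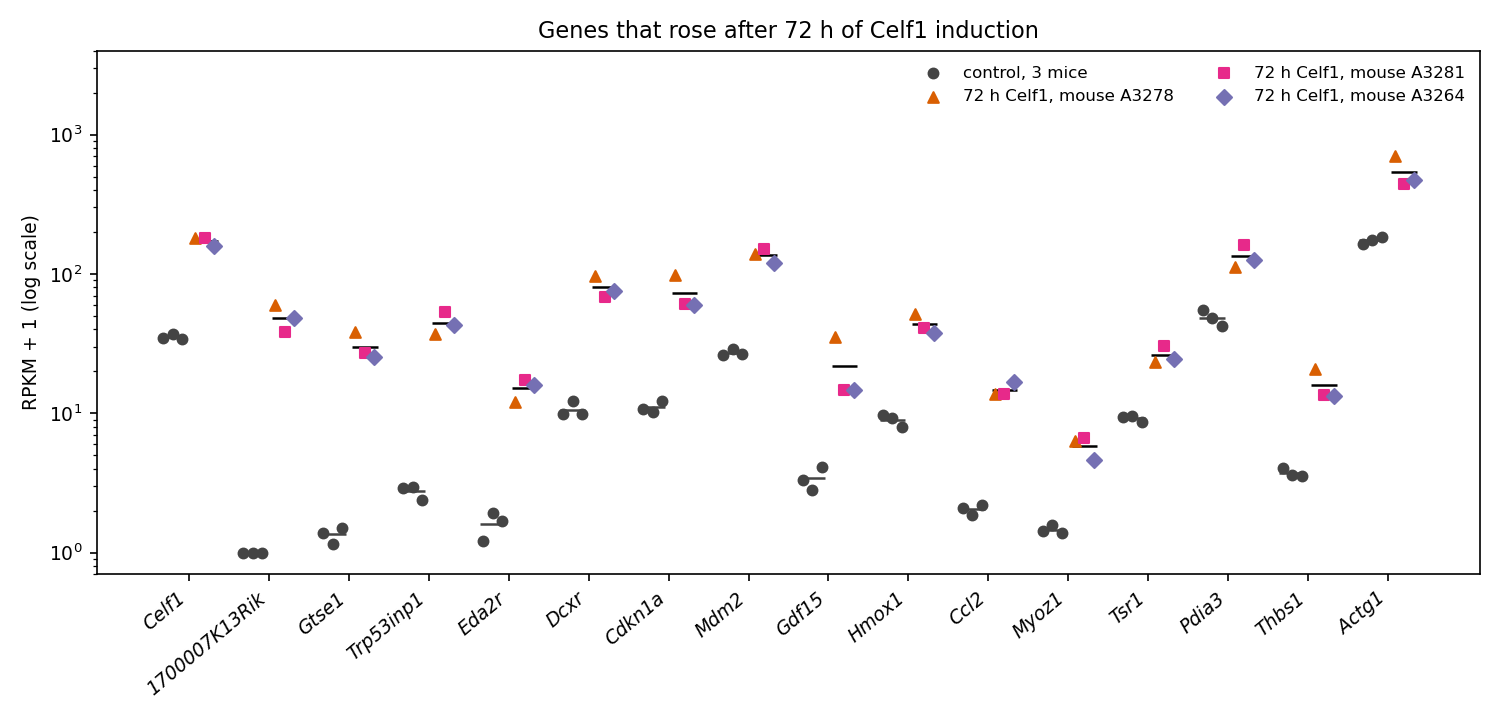
RPKM + 1 on a log scale in each of the 3 controls and the 3 induced mice for 16 genes that rose, with bars at group means. The genes were chosen among those called, and in each the induced mice lie above the controls. A3278 is the highest induced mouse for Gdf15 (34.5 RPKM), Cdkn1a (98.1 RPKM) and Thbs1 (19.8 RPKM).

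Genes of the integrated stress response, in which ATF4 raises amino acid supply and antioxidant genes when translation is impaired, changed in part. Of 28 tested, 5 were higher and 1 lower (17.9% and 3.57%, against 6.39% and 5.22% of all genes), with a median of -0.04. The higher ones were Atf3 (2.11 ± 0.30, adjusted p = 2.9e-04), Gdf15, Slc3a2, Sesn2 and, outside the rule for named genes, the phosphatase subunit Ppp1r15a. Gdf15, a stress hormone of the TGF-beta family, went from 2.32, 1.83 and 3.10 RPKM to 34.5, 13.8 and 13.8 RPKM (2.55 ± 0.35, adjusted p = 1.7e-04), and A3278 had well over the level of the other induced mice. Slc3a2 and Slc7a5 encode the heavy and light chains of 1 amino acid transporter, and they moved apart. Slc3a2 rose from 21.0, 29.6 and 22.7 RPKM to 69.4, 48.7 and 54.2 RPKM, and Slc7a5 fell from 3.54, 3.50 and 3.29 RPKM to 1.49, 0.925 and 1.26 RPKM (-1.0 ± 0.21, adjusted p = 0.006). None of 23 aminoacyl-tRNA synthetases, which are textbook ATF4 targets, passed (median -0.08), against 11.6% of all genes. With the same tool, 2 were higher after median-ratio scaling and after a GC correction, 2 higher and 1 lower after quantile normalization, and 3 lower without A3278.

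Chaperones of the endoplasmic reticulum (ER) gave rises and no falls. Of 21, 5 were higher (23.8%, against 6.39% of all genes) and 0 lower (median 0.31, 0.47 in A3278). Pdia3, a disulphide isomerase that works with the lectin chaperones, rose from 53.7, 47.2 and 41.0 RPKM to 111, 162 and 125 RPKM (1.46 ± 0.17, adjusted p = 5.0e-05). Its partners Calr and Canx rose by 0.87 ± 0.20 and 0.81 ± 0.17, and Dnajb9, a cochaperone, by 1.10 ± 0.23. The central chaperone Hspa5 (BiP) did not pass at 129.6, 145 and 113 RPKM and 155, 179 and 166 RPKM (0.37 ± 0.17, adjusted p = 0.16); it was chosen after its value was seen. In the list of ER stress sensors and degradation 2 of 25 were higher and 1 lower (8% and 4%, against 6.39% and 5.22% of all genes). Selenos went from 20.5, 22.1 and 20.2 RPKM to 44.2, 44.5 and 42.8 RPKM, while Herpud1 fell from 156, 133 and 139 RPKM to 89.7, 65.8 and 88.1 RPKM (-0.82 ± 0.19, adjusted p = 0.01). The ER stress element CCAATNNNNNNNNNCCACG, searched on both strands, was in 9 of 38 promoter windows of these lists and in 0.184% of all windows, and in 2 of the 7 higher genes with a window. These 2 are shown, with the element in capitals.
Calr (chr8:84847050-84847118, minus strand): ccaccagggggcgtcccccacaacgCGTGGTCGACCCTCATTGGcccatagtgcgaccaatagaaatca
Canx (chr11:50325775-50325843, minus strand): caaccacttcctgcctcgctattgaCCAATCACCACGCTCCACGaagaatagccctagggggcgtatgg
In Calr the element lies on the other strand, so it reads in reverse complement.

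The other 7 motifs searched gave these shares. The CCAAT box, which the ER element contains, was in 73.7% of the ER list windows and 43.2% of all. The kappaB site was in 38.2% of windows of the inflammatory lists and 12.4% of all, and TGACNNNGC was in 43.3% of NRF2 list windows and 17.2% of all. For TGATGNAA the shares were 29.2% of the ATF4 list and 2.80% of all, and for CACGTG 21.4% of the ribosome biogenesis list and 12.0% of all. The CArG box was in 8.70% of immediate early genes and 1.68% of all, and TGACGTCA in 17.4% and 3.58%. These are only 2 and 4 of 23 immediate early genes. With 1 window for each gene they were 1 and 2 of 23, against 1.42% and 3.3% of all.

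Proteasome subunits, which form the particle that degrades ubiquitinated proteins, gave rises and no falls. Of the 20S core 3 of 14 were higher, of the cap ATPases 2 of 6 and of the other cap subunits 5 of 17, with 0 lower in each and medians of 0.30, 0.45 and 0.24. Psma5 of the core went from 45.8, 37.8 and 38.0 RPKM to 83.1, 114 and 83.7 RPKM, and Psmd7 of the cap from 70.5, 68.8 and 66.9 RPKM to 151, 152 and 124 RPKM (1.03 ± 0.20, adjusted p = 0.0038). A3278 against the controls called 0 members of the 3 lists, with medians of 0.44, 0.46 and 0.31. None of 7 immunoproteasome genes passed, against 11.6% of all genes. Sqstm1, the autophagy receptor p62, rose by 0.78 ± 0.18, and Atg12, which builds the autophagosome, by 1.36 ± 0.28. They were 2 of 3 higher genes among 32 of autophagy and the lysosome, where Wipi1 was lower. These are 9.4% higher and 3.1% lower, against 6.39% and 5.22% of all genes.

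Of 36 NRF2 and oxidative stress genes 4 were higher and 1 lower, with a median of -0.28, or 11.1% and 2.78% against 6.39% and 5.22% of all genes. Hmox1, which breaks down haem, rose from 8.67, 8.19 and 7.00 RPKM to 50.9, 40.2 and 36.5 RPKM (2.27 ± 0.31, adjusted p = 1.9e-04). The glutathione genes Gclm and Gsr rose by 1.15 ± 0.18 and 1.18 ± 0.20. Nqo1, a quinone reductase and standard NRF2 target, fell from 37.4, 35.6 and 38.4 RPKM to 13.8, 17.4 and 17.0 RPKM (-1.17 ± 0.20, adjusted p = 0.0016), and A3278 had the lowest value. Of 15 muscle ubiquitin ligases and atrophy genes, 1 was higher and 4 lower (6.67% and 26.7%, against 6.39% and 5.22% of all genes). Among the lower ones was Fbxo40 (-0.87 ± 0.19, adjusted p = 0.0087).

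Some genes of the machinery that makes ribosomes rose. Of 36 genes of ribosome biogenesis and the nucleolus, 11 were higher and 0 lower (median 0.33, 0.56 in A3278). Tsr1, an assembly factor of the small subunit, went from 8.45, 8.5 and 7.63 RPKM to 22.4, 29.6 and 23.4 RPKM (1.5 ± 0.18, adjusted p = 5.9e-05). The large subunit factors Brix1 and Mak16 rose by 1.43 ± 0.21 and 1.91 ± 0.29, and Gnl3, the nucleolar protein nucleostemin, by 1.40 ± 0.20. Myc, which drives this programme in growing cells, was low and rose from 1.60, 1.28 and 1.67 RPKM to 4.72, 2.94 and 3.67 RPKM (0.91 ± 0.27, adjusted p = 0.038). Of 66 cytosolic ribosomal proteins 0 were higher and 1 lower, and 2 were higher after median-ratio scaling and quantile normalization. The one that fell is Rpl3l, the muscle form of a large subunit protein, from 175, 194 and 170.4 RPKM to 127, 96.5 and 88.1 RPKM (-0.80 ± 0.21, adjusted p = 0.019). The ribosomal protein median was 0.49, -0.26 and -0.06 in the 3 induced mice, so A3278 and the others lay on different sides of 0.

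Of 40 translation initiation factors 6 were higher and 0 lower (median 0.15), and of 11 elongation and release factors none passed. Eif5, the activator of start codon recognition, rose from 32.9, 26.9 and 24.7 RPKM to 44.3, 109 and 82.8 RPKM (1.37 ± 0.25, adjusted p = 0.0026), and Eif3a by 0.85 ± 0.19. A3278 was the lowest induced mouse for both, and alone it called none of the 40.

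RNA-binding proteins of the hnRNP family, which coat new transcripts, gave rises and no falls. Of 20, 8 were higher and 0 lower, with a median of 0.40 (0.27, 0.65 and 0.37 in the induced mice). Hnrnpu went from 64.6, 59.8 and 59.1 RPKM to 128, 181 and 131 RPKM (1.23 ± 0.19, adjusted p = 7.6e-04), and Hnrnph1, which regulates splicing together with CELF1, from 53.1, 54.6 and 46.9 RPKM to 83.7, 119.8 and 96.1 RPKM. With A3278 alone 0 of the 20 passed, and a GC correction lowered the median to 0.17 with 7 higher. Of 40 SR and spliceosome proteins 4 were higher and 1 lower (10% and 2.5%, against 6.39% and 5.22% of all genes). The higher ones included Snrpd1 (1.11 ± 0.21) and Tra2a (0.96 ± 0.24).

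In the list of CELF, MBNL, RBFOX and other muscle splicing regulators, Celf1 was the only 1 of 16 that was higher. Rbfox1, a regulator of muscle and neural exons, fell from 11.8, 13.9 and 15.3 RPKM to 5.32, 4.45 and 6.09 RPKM (-1.22 ± 0.26, adjusted p = 0.0064), and Rbm24 by 0.86 on the log2 scale with -0.51 in A3278. Of 43 genes of mRNA decay 2 were higher, Btg2 and Upf2 (0.74 ± 0.19, adjusted p = 0.02), or 4.65% against 6.39% of all genes. Of 18 mRNAs known to be bound or destabilised by CELF1, 4 were higher (22.2%, against 6.39% of all genes) and 0 lower. Their median was -0.05 against -0.10 for all genes. The 4 were Cdkn1a, Fos, Junb and Myc, and each of them is also in another list here.

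Immediate early genes, which cells switch on within minutes of a stimulus, included 9 higher and 0 lower of 30. Their medians were 0.96, -0.01 and 0.18 in the 3 induced mice, so that A3278 stood apart. Fos went from 0.900, 2.78 and 1.26 RPKM to 11.3, 7.66 and 5.67 RPKM (1.82 ± 0.34, adjusted p = 0.003), and Egr3 from 0.790, 0.720 and 0.820 RPKM to 9.01, 3.27 and 4.05 RPKM. Junb rose by 1.59 ± 0.41 and had 47.5 RPKM in A3278, well above the other induced mice. Jun and Nr4a1, named after their values were seen, did not pass (0.21 ± 0.29, adjusted p = 0.67 and 0.47 ± 0.34, adjusted p = 0.38).

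Some inflammatory genes rose from low levels. Of 20 chemokines and cytokines 4 were higher (20%, against 6.39% of all genes) and 0 lower (median 0.14). Ccl2, which draws monocytes, rose from 1.10, 0.850 and 1.19 RPKM to 12.8, 12.7 and 15.8 RPKM (2.85 ± 0.30, adjusted p = 1.7e-05), and its neighbour Ccl7 from 0.400, 1.10 and 2.14 RPKM to 14.0, 9.57 and 13.9 RPKM. Ccl12 and Cxcl1 rose by 1.83 ± 0.37 and 1.87 ± 0.43. These CC chemokines lie on chromosome 11, with 8258 bases between Ccl2 and Ccl7 and 54319 between Ccl7 and Ccl12. They are alike in sequence, so reads could be shared among them.

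Acute phase and NF-kappaB genes gave 9 higher and 0 lower of 27, with a median of 0.48 and 0.63, 0.49 and 0.48 in the 3 mice. Saa3, serum amyloid A3, was at 0.140, 0 and 0 RPKM and then 3.01, 5.21 and 3.69 RPKM. The endothelial adhesion genes Sele and Icam1 rose by 1.33 ± 0.25 and 0.98 ± 0.23, and the pentraxin Ptx3 by 1.64 ± 0.36. Of the gp130 pathway, Osmr, the oncostatin M receptor, and Socs3, an inhibitor of STAT signalling, rose by 0.91 ± 0.20 and 1.74 ± 0.36. Tap1, the peptide transporter of antigen presentation, was the only higher gene of 29 in the interferon list (1.56 ± 0.31, adjusted p = 0.0044), or 3.45% against 6.39% of all genes. None of 29 complement and coagulation genes passed, against 11.6% of all genes. The interferon list divided the mice, with medians of 0.80, -0.11 and -0.17. The 31 genes of the list with values, tested or not, summed to 1675, 773 and 707 RPKM against 877, 994 and 791 RPKM in the controls. With the column code as a term 6 of its genes were higher.

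Markers of immune cells did not pass in the same mice. Of 15 tested macrophage and monocyte markers 0 passed, against 11.6% of all genes. The summed level of the 16 with values, tested or not, was 142, 171 and 178 RPKM in the controls and 238, 146 and 164 RPKM after induction. Cd68 was at 5.37, 7.31 and 6.77 RPKM and 11.9, 5.61 and 6.46 RPKM, and Ccr2, the receptor of Ccl2, was under 0.5 RPKM in every mouse. The 3 tested neutrophil markers did not pass either. The 9 with values, tested or not, had sums of 0.760, 1.32 and 2.65 RPKM and 1.82, 0.835 and 3.18 RPKM. S100a8 was at 0 in 2 controls and in A3281. The part of immune cells in the inflammatory genes was not tested.

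None of 18 collagen chains passed, against 11.6% of all genes. Their medians of 0.42, -0.40 and -0.28 put A3278 above the controls and the other induced mice below. Of 35 matricellular and other matrix proteins 1 was higher and 1 lower (2.86% each, against 6.39% and 5.22% of all genes). Thbs1, thrombospondin 1, rose from 3.04, 2.61 and 2.55 RPKM to 19.8, 12.6 and 12.3 RPKM (2.06 ± 0.26, adjusted p = 8.3e-05). Actg1, the cytoplasmic gamma actin, was the only higher gene of 46 of the actin cytoskeleton (2.17%, against 6.39% of all genes). It went from 163, 175 and 183 RPKM to 700.4, 444 and 469.5 RPKM, though it could share reads with closely similar actin copies. None of 10 fibroblast, 10 endothelial and 10 smooth muscle markers passed, against 11.6% of all genes. Of 10 markers of heart muscle cells 2 were lower (20%, against 5.22% of all genes) and 0 higher, with a median of -0.54 (-0.34 in A3278). Their sums were 56451, 58742 and 58924 RPKM in the controls and 48085, 36750 and 36158 RPKM after induction. After quantile normalization 0 of the 10 passed, with a median of -0.05. That step gives each rank of expression the same value in every mouse, so it can hide a fall shared by the most abundant genes. Fibroblast sums were 1171, 1282 and 1091 RPKM in the controls and 1325, 959.7 and 971 RPKM after induction, and endothelial sums 1107, 943 and 1100.5 RPKM and 954, 878 and 791 RPKM. Of the red cell markers Hba-a2 had 3020.4, 1076 and 1264 RPKM after induction, the highest again in A3278, against 1960.5, 1112 and 1477 RPKM in the controls.

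None of 16 genes of mitosis passed (median 0.31), against 11.6% of all genes. Of 26 genes of DNA replication and nucleotide supply, 3 were higher and 3 lower (11.5% each, against 6.39% and 5.22% of all genes), and without A3278 1 and 4. Rrm2, a subunit of ribonucleotide reductase, rose by 1.63 ± 0.26, and Rpa1, which binds single-stranded DNA, fell by 0.59 on the log2 scale. Of 28 DNA damage genes outside the p53 lists 3 were higher, with Msh6 of mismatch repair the clearest (1.31 ± 0.20, adjusted p = 5.2e-04), and Ung, which removes uracil from DNA, was lower (-1.15 ± 0.34, adjusted p = 0.036, -0.53 in A3278). These are 10.7% higher and 3.57% lower, against 6.39% and 5.22% of all genes. The share of each list called in each direction is plotted for all 67 lists.

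**Figure D3:**
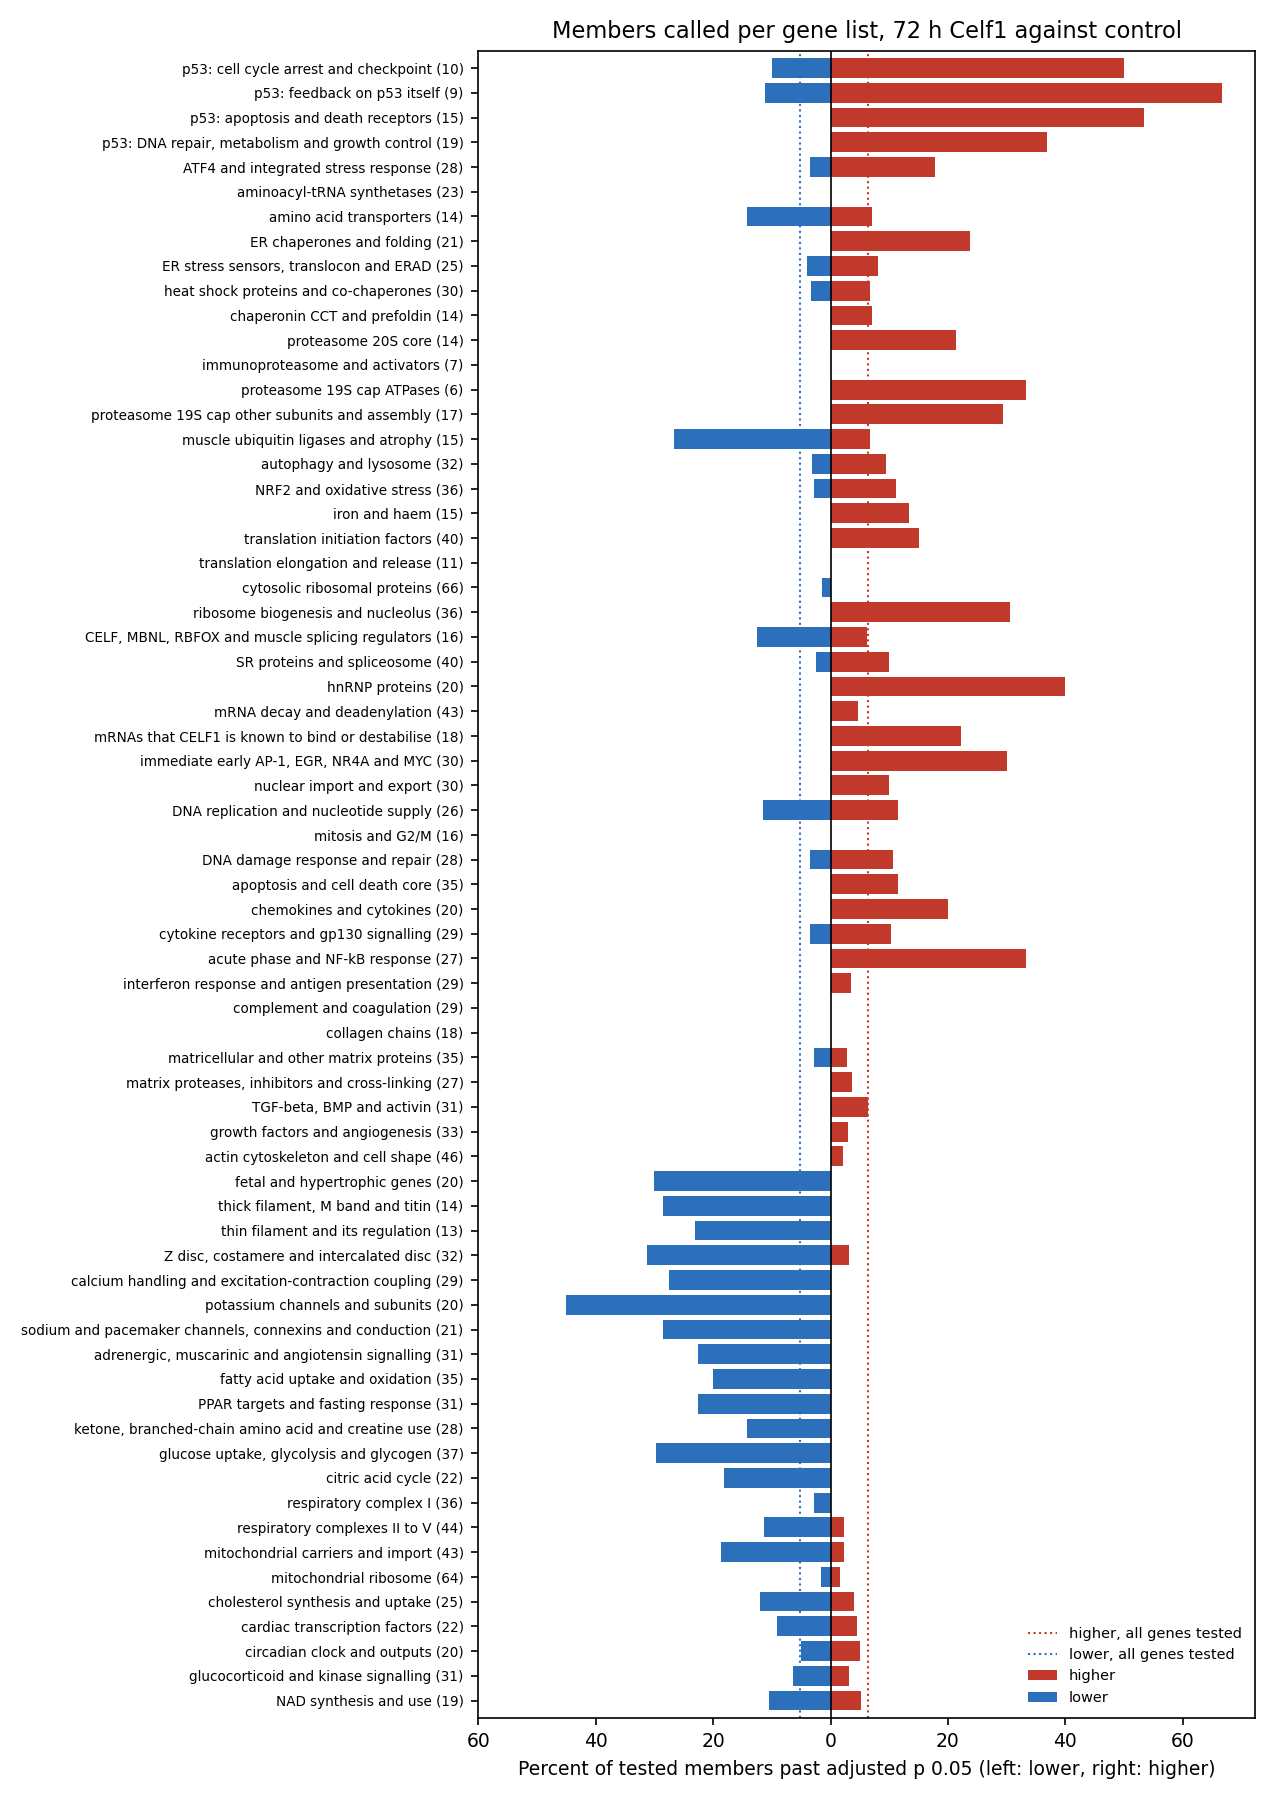
Percent of the tested members of each of 67 gene lists (number tested in brackets) that passed the adjusted p of 0.05, with higher genes to the right and lower genes to the left. Dotted lines mark the shares of all genes tested, 6.39% higher and 5.22% lower, and 3 of the 4 p53 lists reach furthest right, potassium channels furthest left.

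The falls included many heart muscle genes. The largest among those without overlap of the groups was Dusp18, a dual-specificity phosphatase (chr11:3795243-3801299, plus strand), from 34.7, 23.5 and 27.8 RPKM to 8.31, 7.21 and 10.6 RPKM (-1.61 ± 0.26, adjusted p = 9.6e-04). Lgals4, a galectin (chr7:29618813-29626722, plus strand), went from 19.3, 14.2 and 20.5 RPKM to 5.82, 5.73 and 7.33 RPKM (-1.37 ± 0.21, adjusted p = 6.4e-04). In both genes the groups were far apart, and A3278 was as low as the others. That holds also for Acss1, a mitochondrial acetyl-CoA synthetase, at 86.1, 78.7 and 83.2 RPKM and 39.1, 35.2 and 40.1 RPKM. Other large falls were weaker in A3278: Cited2, a cofactor of CBP and p300, was at -1.21 overall and -0.85 in A3278, and the glycogen regulator Nhlrc1 (malin) at -1.20 and -0.87. Sspn, sarcospan of the dystrophin complex, fell from 37.1, 41.0 and 45.6 RPKM to 22.2, 15.4 and 18.6 RPKM.

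Some genes of the sarcomere, the contractile unit, fell. Of 14 thick filament and M band genes 4 were lower, of 13 thin filament genes 3, and 0 were higher in either, with medians of -0.44 and -0.50. The M band protein Myom1 went from 299.9, 287 and 286 RPKM to 203, 187 and 176 RPKM, and Smyd1, a methyltransferase of muscle, from 139, 141 and 139 RPKM to 85.5, 68.1 and 72.0 RPKM (-0.89 ± 0.22, adjusted p = 0.016). Actc1, cardiac actin, fell by 0.77 on the log2 scale with -0.43 in A3278. No sarcomere gene of these lists passed with A3278 alone. After quantile normalization the thick filament median was -0.19, and the thin filament median was 0 with 1 gene lower. The limit of that step for the most abundant genes, given above, holds here too.

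Of 32 genes of the Z disc, costamere and intercalated disc, 10 were lower and 1 higher (median -0.44). Myot, myotilin, went from 29.3, 26.4 and 27.3 RPKM to 11.3, 15.6 and 15.9 RPKM (-0.92 ± 0.20, adjusted p = 0.0073), lowest in A3278. Csrp3, the muscle LIM protein, fell by 0.73 on the log2 scale. Myoz1, the calsarcin of fast skeletal muscle, was the exception and rose from 0.420, 0.580 and 0.380 RPKM to 5.31, 5.68 and 3.59 RPKM (1.99 ± 0.22, adjusted p = 2.7e-05). No marker of skeletal muscle passed among 6, and Acta1 was at 411, 377 and 443 RPKM and 365, 446 and 465 RPKM.

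Calcium handling genes gave 8 lower and 0 higher of 29 (median -0.42, -0.25 in A3278). With median-ratio scaling, quantile normalization and GC correction 3, 4 and 2 were higher. Camk2a, a calmodulin-dependent kinase, went from 15.6, 18.2 and 17.3 RPKM to 7.15, 8.76 and 7.52 RPKM (-1.04 ± 0.19, adjusted p = 0.0025). Cacna1c, the pore of the L-type calcium channel, went from 40.4, 33.8 and 41.1 RPKM to 19.6, 20.0 and 24.2 RPKM, and the channel Tmem38a of the sarcoplasmic reticulum fell by 0.76 on the log2 scale. Pln, phospholamban, the brake of the calcium pump, was chosen after its value was seen and fell from 2556, 2269 and 2330.0 RPKM to 1268, 1069.6 and 1192 RPKM (-1.02 ± 0.23, adjusted p = 0.01). Ryr2, the calcium release channel, did not pass (-0.42 ± 0.22, adjusted p = 0.22).

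Potassium channels had the largest share of lower genes, 9 of 20 with 0 higher and a median of -0.74 (-0.47, -0.75 and -0.79 in the 3 mice). Kcnj3, a channel opened by acetylcholine, went from 12.8, 13.1 and 13.6 RPKM to 7.10, 7.08 and 6.93 RPKM (-0.82 ± 0.15, adjusted p = 0.0025), and the 3 induced mice were nearly equal. Kcnv2, a silent subunit, fell from 6.09, 5.40 and 7.48 RPKM to 2.07, 1.93 and 3.32 RPKM. The ATP-sensitive channel genes Kcnj11 and Abcc8 fell by 1.04 and 0.95 on the log2 scale, with -0.76 and -0.59 in A3278. Alone, A3278 called 2 of the 20.

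Of 21 sodium, pacemaker and conduction genes 6 were lower and 0 higher. Scn4b, a beta subunit of sodium channels, went from 28.3, 23.4 and 28.8 RPKM to 14.5, 17.5 and 18.4 RPKM (-0.65 ± 0.18, adjusted p = 0.027). Hcn2, a pacemaker channel, fell by 0.76 on the log2 scale. The list median was -0.25, -0.58 and -0.49 in the 3 mice, A3278 alone called 0, and a GC correction left 2 lower. Receptor signalling gave 7 lower and 0 higher of 31, among them Agtr1a, the angiotensin receptor (-0.85 ± 0.17, adjusted p = 0.0044), Adra1a, an alpha adrenergic receptor (-0.87 ± 0.20, adjusted p = 0.0094), and Rgs2 (-0.84 ± 0.20, adjusted p = 0.012). The medians of the receptor list were -0.05, -0.39 and -0.37 in the 3 mice, and A3278 alone called 0. Adrb1, the main beta adrenergic receptor of the heart, was chosen after its value was seen and did not pass (-0.85 ± 0.37, adjusted p = 0.14).

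**Figure D4:**
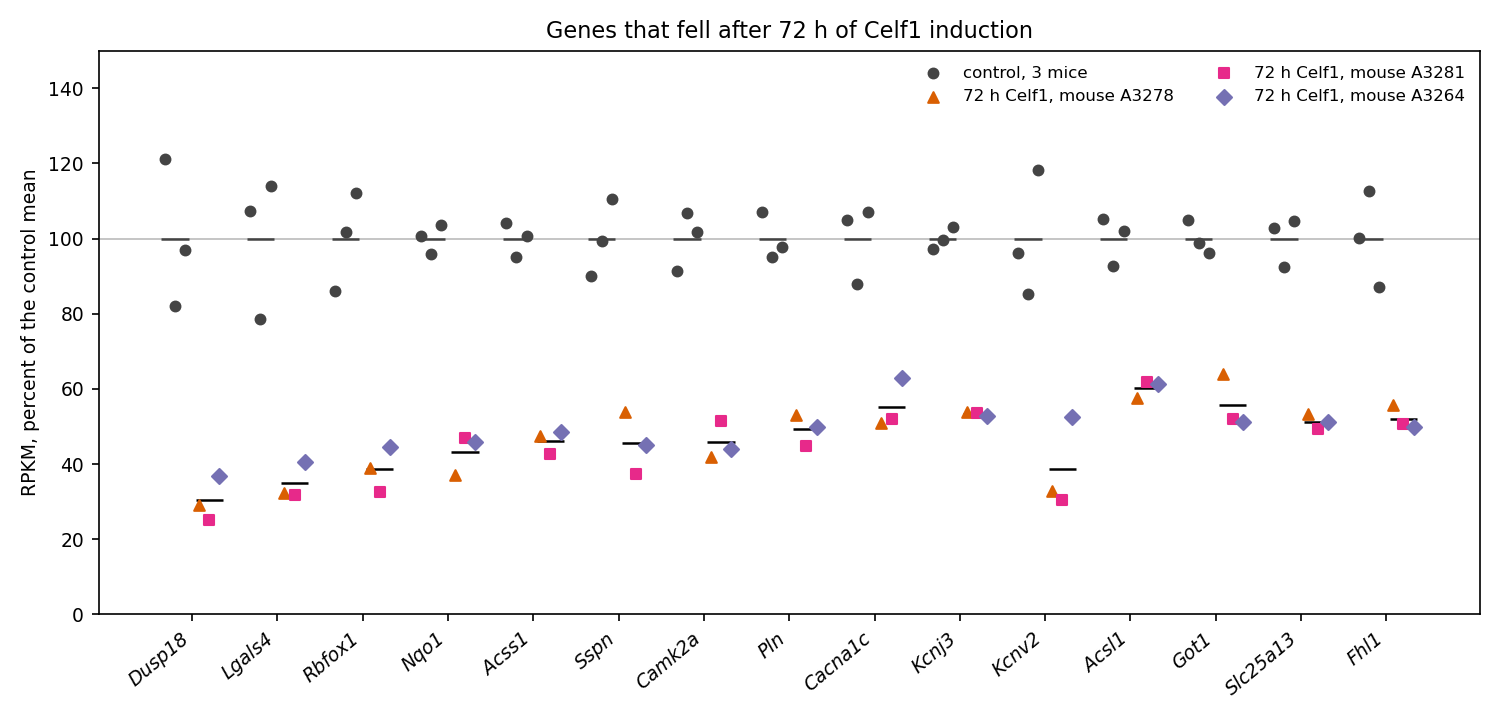
RPKM as a percent of the control mean in each mouse for 15 genes that fell, with bars at group means. The genes were chosen among those called, and in each the induced mice lie below the controls. Dusp18 falls to 7.21 RPKM in A3281.

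Some genes of energy supply fell as well. Of 35 genes of fatty acid uptake and oxidation 7 were lower, of 31 PPAR targets 7, of 37 of glucose uptake, glycolysis and glycogen 11, and of 22 of the citric acid cycle 4, with 0 higher in each. Their medians were -0.41, -0.53, -0.47 and -0.29. Acsl1, which activates fatty acids, went from 256, 226 and 249 RPKM to 140.1, 151 and 149.7 RPKM (-0.73 ± 0.16, adjusted p = 0.0075), and Acacb, the mitochondrial acetyl-CoA carboxylase, from 61.2, 63.2 and 67.6 RPKM to 37.1, 28.1 and 33.3 RPKM. Fabp3, the fatty acid carrier of heart muscle, went from 7674, 6003 and 7056 RPKM to values between 3207 and 4305 RPKM. Plin5, a coat protein of lipid droplets, fell by 1.08 on the log2 scale. Pdk1, which restrains pyruvate oxidation, went from 66.5, 53.4 and 64.8 RPKM to 30.7, 37.9 and 37.7 RPKM (-0.78 ± 0.17, adjusted p = 0.0074), and Mpc1 of the mitochondrial pyruvate carrier from 442, 506 and 457 RPKM to 218, 247 and 245 RPKM. Got1, an aminotransferase of the malate-aspartate shuttle, fell from 342, 321 and 313 RPKM to 208, 169 and 167 RPKM (-0.85 ± 0.17, adjusted p = 0.004). With A3278 alone, 1 gene of these 4 lists passed.

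Of 36 of complex I 1 was lower and 0 higher, and of 44 of complexes II to V 5 were lower and 1 higher. That is 2.78% and 11.4% lower, against 5.22% of all genes. The list medians were 0.05, -0.54 and -0.32 and 0.03, -0.73 and -0.47 in the 3 mice, so they were low in A3281 and A3264 and near 0 in A3278. Without A3278, 7 of the 36 and 19 of the 44 were lower. Ndufc2 of complex I went from 190.1, 167 and 188 RPKM to 125, 46.6 and 64.3 RPKM (-1.32 ± 0.30, adjusted p = 0.0097), and A3278 lay between the controls and the other induced mice. Atp5g3, a subunit of the ATP synthase ring, went from 1433, 1375 and 1189.8 RPKM to 758, 655 and 606 RPKM. Of 43 mitochondrial carriers and import genes 8 were lower and 1 higher. Their medians were -0.09, -0.45 and -0.46 in the 3 mice, A3278 alone called 0, and without A3278 17 were lower. Slc25a13, an aspartate-glutamate carrier, went from 53.5, 48.1 and 54.6 RPKM to 27.7, 25.7 and 26.7 RPKM (-0.94 ± 0.16, adjusted p = 0.0012), and Mfn2, which fuses mitochondria, fell by 0.79 on the log2 scale. Of 64 mitochondrial ribosomal proteins 1 was higher and 1 lower.

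**Figure D5:**
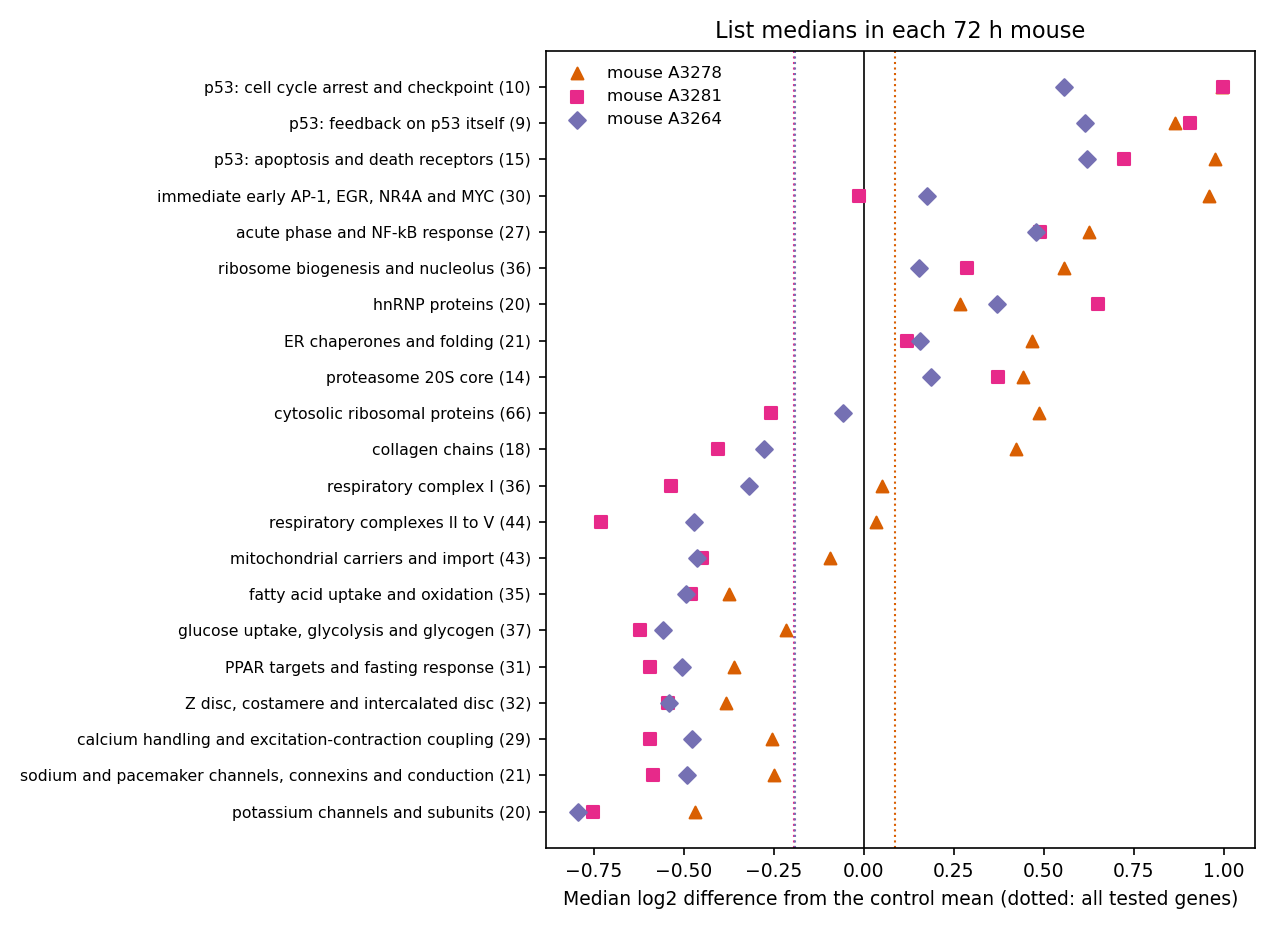
Median log2 difference from the control mean of 21 gene lists in each of the 3 induced mice, with dotted lines at the median of all tested genes in the same mouse. The 3 p53 lists shown lie between 0.56 and 1.0 in every mouse. The p53 list of DNA repair, metabolism and growth control is not shown, with medians of 0.37 in A3278, -0.012 in A3281 and -0.0039 in A3264. Potassium channels lie below 0 in every mouse, and respiratory complexes lie near 0 in A3278 alone.

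Among 22 cardiac transcription factors 2 were lower and 1 higher (9.09% and 4.55%, against 5.22% and 6.39% of all genes). Tbx5, a factor of the conduction system and chambers, went from 17.0, 15.1 and 20.3 RPKM to 11.9, 8.20 and 8.32 RPKM (-0.83 ± 0.18, adjusted p = 0.008). Of 20 fetal and hypertrophic genes 6 were lower and 0 higher, Fhl1 most clearly, from 79.0, 88.9 and 68.6 RPKM to 43.9, 39.9 and 39.4 RPKM (-0.92 ± 0.18, adjusted p = 0.0041). The list also holds the atrial light chains Myl4 and Myl7, and both are among the 6, with Myl7 at -1.62. The medians of this list were -0.08, -0.53 and -0.58 in the 3 mice, and A3278 alone called 0 lower and 1 higher. Nppa, a natriuretic peptide that marks a strained ventricle and is also among the atrial markers below, did not pass. It was at 36.3, 49.4 and 40.1 RPKM in the controls and 67.2, 27.4 and 20.8 RPKM after induction. A3278 was the highest and the other induced mice the lowest of the 6 mice.

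Atrial genes divided the induced mice. Myl7 was at 17.1, 14.2 and 19 RPKM in the controls and 18.4, 2.46 and 1.80 RPKM after induction (-1.62 ± 0.48, adjusted p = 0.038), and Myl4 at 40.5, 32.7 and 41.3 RPKM and 35.6, 10.3 and 9.34 RPKM. Both were called lower, 2 of the 5 atrial markers tested (40%, against 5.22% of all genes). Sln, sarcolipin, was at 11.1, 18.4 and 18.4 RPKM and 13, 1.17 and 0.955 RPKM and did not pass. In all 3 genes A3278 overlapped the controls, and A3281 and A3264 lay below. Nppa is among 6 atrial markers, 5 of them tested, and so enters their sum with the values given above. The summed level of the 6 was 107, 118 and 121 RPKM in the controls and 137, 42.8 and 35.1 RPKM in the induced mice. The part of dissected tissue in this was not tested.

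Single genes of NAD use and the clock passed as well. Sirt1, a deacetylase, rose from 3.51, 2.79 and 2.68 RPKM to 7.73, 14.3 and 11.6 RPKM (1.58 ± 0.25, adjusted p = 7.8e-04), and Nmnat3, an NAD synthase, fell by 1.0 on the log2 scale. Arntl, the clock activator BMAL1, rose from 0.430, 0.920 and 0.850 RPKM to 3.18, 2.81 and 1.72 RPKM (1.03 ± 0.20, adjusted p = 0.004). It was the only higher gene of 20 of the clock, and the hour at which the mice were killed is not given in the sources used here.

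Some of these genes share exonic sequence with another gene, and without the strand of the reads the 2 cannot be told apart. At least 50 exonic bases are shared on opposite strands by Fam166a with Tubb2c, Tsr1 with Srr, Fabp3 with Zcchc17, Tap1 with Psmb9 and Myl2 with Ccdc63. Acss1, Gclm, Icam1, Kcnj3, Mak16, Mpc1, Nppa, Psma5, Riok2, Sirt1, Sqstm1 and Sspn share as many with a predicted, noncoding or less studied gene on the other strand. Their values hold for the pair of genes in each case.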

How the data were processed

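The authors deposited 1 table of RPKM values with 2 decimals for 16042 genes in 20 columns of 15 mice. TopHat and Bowtie were used with mm9, per the submitters' processing notes. Tool versions, the counting step and strandedness were not given in the sources used here. Each mouse counts as 1 sample. Values were set to log2(RPKM + 1), a minimum mean of 1 RPKM left 10868 genes, and limma (version 3.58.1, R 4.3.3, empirical Bayes with trend) was fitted over 15 mice in 5 groups with 10 residual degrees of freedom. The Benjamini-Hochberg method adjusted p over all tested genes, with a threshold of 0.05. On data simulated for this comparison (10868 genes) 66% of 100 genes changed by 1 on the log2 scale and 99% of 100 changed by 2 were recovered, with 11 false calls. The simulated noise was independent between genes and held no shift common to a mouse or a column code. These rates therefore need not hold for the measured data. The comparison, the 67 gene lists (1885 of 1931 members found, the others not analysed here), the 14 marker lists and the motifs were chosen with earlier results of these data known. The rule for named genes takes the 25 largest rises and falls that passed without overlap of the groups, Celf1, at most 4 genes per list in order of p, and the markers. A selection of these is given (some results are not reported here), plus genes said to be chosen after their values were seen. Gene IDs were matched to RefSeq symbols (15988 of 16042), and coordinates, GC content and exon overlaps come from GENCODE vM1. Depth was estimated from the value of 1 read in 106 olfactory receptor genes. The gene set and the tolerance of that estimate were settled after estimates had been seen, and 1 column of A3281 changes with the tolerance. There were 17 alternatives: a pseudocount of 0.1, no filter, a minimum mean of 5 RPKM, median-ratio scaling, quantile normalization, robust empirical Bayes, the 2 groups alone, the first column of each mouse, a column code term with the mouse as random block, A3278 alone, a GC correction and leaving out each of the 6 mice. Whether mice share a litter is not stated, so p measures the spread between these animals.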

Additional observations from a re-analysis of the deposited data

How the results depend on the processing

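Of 84 named rises 48 passed in every alternative run for them, Celf1 among them, but of 52 named falls only Dusp18, Lgals4, Myot, Nqo1 and Pdk1 did. With A3278 alone 29 rises and 44 falls were lost, without A3281 7 and 25, and without A3280 8 and 24. The total of 1262 genes became 730 (232 lower) with the first column of each mouse, 204 (189 higher, 15 lower) with A3278 alone and 376 (322 higher, 54 lower) with the column code as a term. That last fit takes its estimates from A3278 and the controls, since no other 72 hour mouse shares a code with a control, and 85.6% of its calls were higher, against 55.1% in the fit as reported, 39.7% without A3278 and 92.6% with A3278 alone. Leaving out each mouse in turn gave 478 to 2490 genes in all, 355 to 989 higher and 120 to 1501 lower. The cause of these shifts was not tested. The median of all genes moved by 0.18 on the log2 scale with A3278 alone, and by under 0.1 with each scaling. List medians moved more: quantile normalization and GC correction took fetal and hypertrophic genes from -0.38 to -0.14 and -0.18, complexes II to V from -0.39 to -0.10 and -0.26, the citric acid cycle from -0.29 to -0.14 and -0.17 and NRF2 genes from -0.28 to -0.08 and -0.11. No paired analysis was possible because the mouse numbers of the groups are all different.

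Of called genes, Myl7 changed sign, at 0.14 with A3278 alone and with the column code. The other changes of sign were in genes that did not pass. With A3278 alone and with the column code, Myl2 was at 0.053, Nppa at 0.68, Xpc at 0.043 and Acta1 at -0.17. Acta1 was also at -0.074 with the first column, Myl2 at 0.091 after quantile normalization and Ccr2 at -0.13 after GC correction. When single mice were left out, Acta1 ranged from -0.020 to 0.16, Cd68 from -0.083 to 0.40, Hba-a2 from -0.34 to 0.40, Jun from -0.11 to 0.44, Nppa from -0.78 to 0.045 and S100a8 from -0.035 to 0.49.

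Values carry 2 decimals and no counts, so a level near 0 RPKM is known only to that step, and the error of counting cannot be given.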
